A study of Danio rerio with 6 samples.

Results

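Digestive enzymes of the exocrine pancreas are made by acinar cells, which pack proteases as inactive zymogens, together with amylase and lipases, into granules that are released into the gut. Trypsins cut proteins after basic residues and activate the other zymogens, chymotrypsins and elastases cut after bulky and small residues, and amylase cuts starch. The adult zebrafish exocrine pancreas is a diffuse tissue in the mesentery, close to the gut and the liver. The genes followed here were 10 names, selected on their measured levels and group differences in these same libraries. Of these, 9 matched a gene in the table of 30628 genes, namely prss1, prss59.1, prss59.2, ela2, ela2l, ela3l, amy2al1, ctrb1 (listed as ctrb.1) and ENSDARG00000017314, which carries the symbol CELA1. The carboxypeptidase name cpa5 had no match by symbol and is not analysed under that name. Another 2 genes carry the symbol CPA1, and whether either of them is cpa5 is not settled by the names used here; they are counted with the other exocrine genes. Because those values chose the members, their levels, folds and calls are given as a description and support nothing further.

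RNA came from livers of zebrafish (Danio rerio) in 2 groups of 3 libraries. The ATG5 group carried the transgene Tg(fabp10a:mCherry-T2A-LexPR;LexOP:ATG5WT), in which the fabp10a promoter of hepatocytes drives LexPR, a regulator that is switched on by mifepristone, so that human ATG5, an autophagy gene, is expressed in the liver. The WT group had no transgene according to its genotype label, and both groups received mifepristone and carry the label 2 wpi. The design text calls the groups hepatocellular carcinoma and normal liver, and it lists no group with the transgene but no drug. The sources do not state age or sex, nor whether a replicate is 1 fish or a pool, so a p-value here reflects variation among libraries that may be technical.

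Total estimated counts ran from 33669057 to 44763325 per library. Levels are CPM (counts scaled to a common library total) with TMM factors, and a count of 3 was worth 0.0670 to 0.0891 CPM before these factors. Liver identity was plain in all 6 libraries: the hepatocyte list summed to between 72100 and 305500 CPM, and fabp10a stood between 4899 and 13260 CPM. Hepatocyte genes were lower in ATG5, with 14 of 17 called lower and none higher, and 5 of the 6 tested duct and biliary genes were called higher and none lower. Over all 20366 genes tested, 17.3% were called higher and 13.2% lower (edgeR quasi-likelihood test, adjusted p under 0.05). With library sizes only, in place of TMM factors, the median log2 fold of all genes moved from 0.03 to 0.95 and the calls from 56.7% to 94.9% higher.

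Leaving CELA1 aside, the libraries of the WT group differed more from each other in the RNA of the 7 proteases than the group means did. WT replicate 1 had very little of it, WT replicate 3 had the most, and the 3 ATG5 libraries lay close together between them. The trypsin gene prss1 stood at 28.1, 494.9 and 938.5 CPM in WT replicates 1, 2 and 3. Its ATG5 values, in the same order of replicates, were 216, 171 and 122 CPM. The highest of the 6 values was 33.4 times the lowest, and both lay in the WT group. The trypsin family genes prss59.1 and prss59.2 lie next to each other in the RefSeq gene order. For prss59.1 the WT levels were 23.2, 423 and 917 CPM and the ATG5 levels 161, 172 and 134 CPM. For prss59.2 they were 27.1, 396 and 922 CPM in WT, and 160.5, 179 and 137 CPM in ATG5. The estimated counts of this pair were not whole in any library, while their sum was whole in all 6 within 0.001, so reads were split between the 2 genes and only the pair's joint level is certain.

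**Figure D1:**
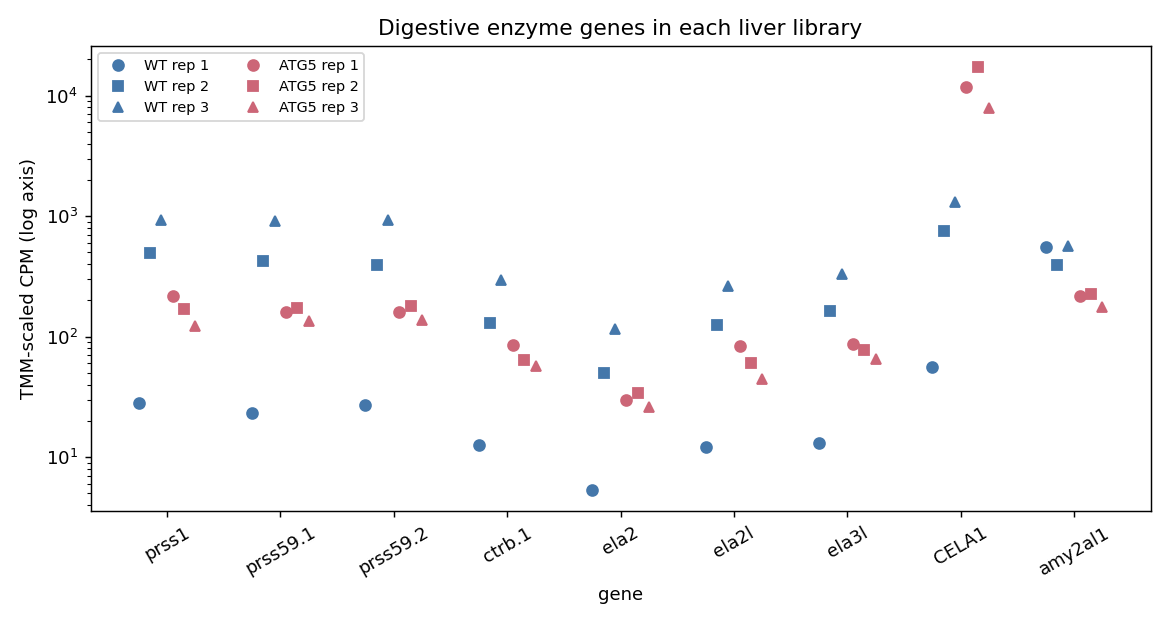
TMM-scaled CPM (log axis) of the 9 matched genes in each library, with 1 point per library, blue for WT and red for ATG5, and marker shape for the replicate number. For the 7 proteases other than CELA1 the ATG5 points sit between WT replicate 1 and WT replicate 2; CELA1 in ATG5 sits above all WT points, at 7864 to 17290 CPM.

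The chymotrypsinogen gene ctrb.1, whose product trypsin activates, followed the same order of libraries. It stood at 12.6, 130 and 295 CPM in WT replicates 1 to 3 and at 85.6, 64.3 and 57.4 CPM in the ATG5 libraries. The elastase genes did so too. For ela3l the WT levels were 13.1, 164 and 328.5 CPM and the ATG5 levels 86.2, 78.2 and 64.8 CPM. The genes ela2 and ela2l, the second of which the RefSeq table also lists under the older name ctrc, are direct neighbours in that table's gene order. In WT, ela2 stood at 5.32, 49.8 and 116 CPM and ela2l at 12.2, 124 and 265 CPM. In ATG5 they stood at 29.9, 34.2 and 26.2 CPM (ela2) and at 84.1, 59.9 and 44.2 CPM (ela2l).

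Across these 7 proteases, WT replicate 2 exceeded WT replicate 1 by 9.35 to 18.2 times and WT replicate 3 exceeded it by 21.6 to 39.4 times. Within ATG5 the highest library exceeded the lowest by 1.28 to 1.9 times. Among the 11031 genes with a mean of at least 5 CPM, 2.72% spanned 10 times or more among the WT libraries, and the median span was 1.38. Among the ATG5 libraries 2.06% of these genes did so, with a median span of 1.35. The 7 proteases took 0.00831%, 0.136% and 0.271% of all counts in the WT replicates, in order, and 0.112%, 0.111% and 0.0780% in those of ATG5. Which cells this RNA came from was not tested. If it came from acinar cells, fewer such cells and less RNA per cell cannot be told apart in bulk liver RNA.

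The fold between the groups therefore rested on which WT libraries entered it. The group means of prss1 were 170 ± 47.1 CPM in ATG5 and 487 ± 455 in WT (SD, n = 3 each), a fitted log2 fold of -1.52 ± 1.57 (SE). Here and below, each SE is that of the difference of mean log2 CPM, not of the fitted value. Over the 7 proteases the fitted log2 folds ran from -1.55 to -0.92, with SEs of 1.33 to 1.62. None was called, where 30.6% of all genes were. Their differences of mean log2 CPM, which weight low libraries more, were nearer 0, from -0.51 to -0.07. The ATG5 mean was 5.12 to 6.69 times the value of WT replicate 1, and the mean of WT replicates 2 and 3 was 2.75 to 4.31 times the ATG5 mean. Without WT replicate 1 the log2 folds were -2.12 to -1.47, and prss1, prss59.1, prss59.2, ela3l and ctrb.1 were called lower, where 7.39% of all genes were called lower. Without WT replicate 3 the folds shrank instead, to between -0.63 for prss1 and 0.12 for ela2, which crossed 0, with ctrb.1 at -0.05. None of the 7 was called there, where 21.5% of all genes were.

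Within a library, the proteases kept nearly fixed proportions to each other. Counts are not corrected for transcript length here, so each ratio is compared only across libraries. The ratio of prss59.1 to prss1 counts was 0.828, 0.855 and 0.977 in the WT replicates, in order, and 0.744, 1 and 1.1 in those of ATG5. For prss59.2, with which prss59.1 shares reads, it was 0.963, 0.8 and 0.983 in WT and 0.742, 1.04 and 1.12 in ATG5. For ela3l the ratio to prss1 was 0.464, 0.331 and 0.35 in WT and 0.399, 0.457 and 0.532 in ATG5. For the 6 proteases set against prss1, the highest ratio in any library was 1.48 to 2.14 times the lowest, while prss1 itself spanned 33.4 times in CPM. CELA1 and amy2al1 departed from these proportions, in different libraries.

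**Figure D2:**
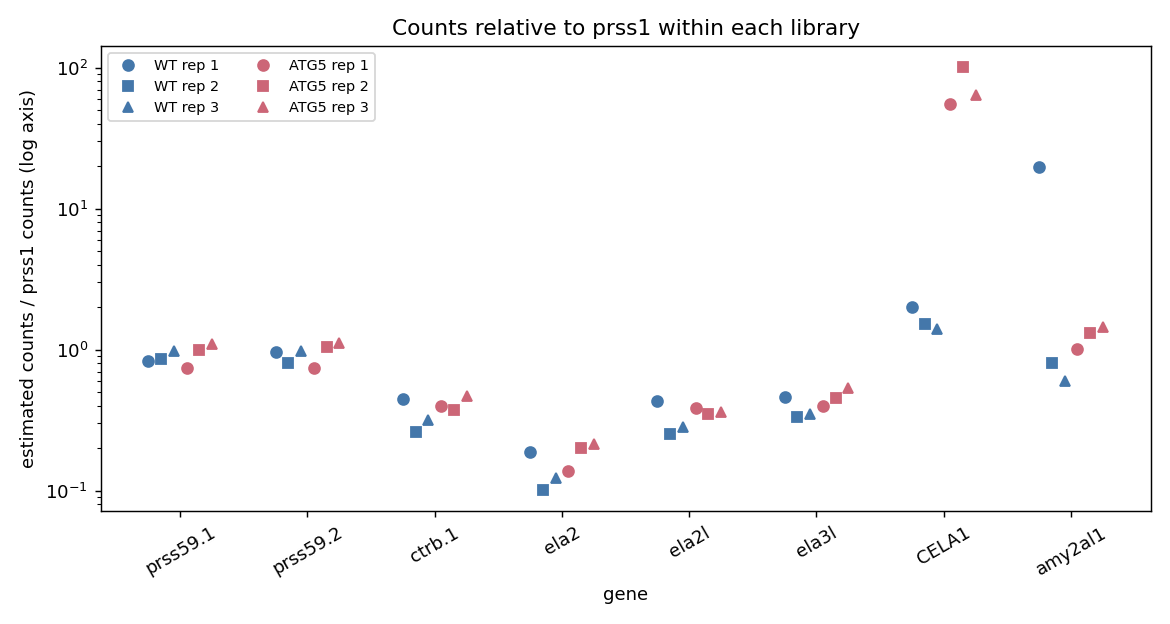
Estimated counts of each gene divided by prss1 counts in the same library (log axis), with 1 point per library, blue for WT and red for ATG5. The proteases prss59.1 to ela3l stay close together; CELA1 rises from 1.41 to 2 in WT to 55 to 101 in ATG5, and amy2al1 stands apart in WT replicate 1 at 19.6.

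CELA1 (ENSDARG00000017314) encodes a chymotrypsin-like elastase, a family known from the pancreas of rat and pig, and it held most of the counts of these 9 genes in the ATG5 livers. Its estimated counts in order of replicate were 638651, 854094 and 468883 for ATG5, against 1407, 25039 and 33250 for WT. In CPM these were 11900, 17290 and 7864 against 56.3, 749 and 1319, so the groups did not overlap and the lowest ATG5 library was 5.96 times the highest WT library. CELA1 alone took 1.62%, 2.54% and 1.05% of all counts in the ATG5 libraries, and 0.00385%, 0.0571% and 0.0946% in the WT libraries. Of the counts of all 9 genes, CELA1 made up 91.2% to 94.6% in ATG5 and 7.72% to 25.6% in WT.

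Among the WT libraries CELA1 moved with the other proteases: replicates 2 and 3 exceeded replicate 1 by 13.3 and 23.4 times, and its ratio to prss1 was 2, 1.51 and 1.41. In ATG5 that ratio was 55, 101 and 64.5, a mean 44.8 times the WT mean, while no other protease ratio in the set spanned more than 2.14 times. The group means of CELA1 were 12350 ± 4727 CPM in ATG5 and 708 ± 633 in WT (SD, n = 3 each), a fitted log2 fold of 4.12 ± 1.44 (SE). It was called higher with all 6 libraries. The call was lost without any single ATG5 library (log2 folds of 3.79 to 4.34), without WT replicate 2 (4.16) and without WT replicate 3 (4.93), and it held without WT replicate 1 (3.57), where 10.4% of all genes were called higher. With library sizes only the log2 fold was 5.07, and 53.3% of all genes were called higher.

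The CELA1 estimates were not whole numbers in any of the 6 libraries, which is how kallisto reports reads shared with other transcripts, and no single gene was found whose estimates add up with them to whole numbers. The same held for ela2l and ctrb.1. The ela2 estimates were not whole in 5 libraries, and their sum with those of the gene ENSDARG00000111667 was whole within 0.001. Reads were thus split between ela2 and that gene, so the level of ela2 alone is uncertain. What share of the CELA1 counts is shared with another transcript, and whether any come from transgene sequence, was not tested. The other genes of the cela1 family were looked at after the CELA1 values were seen. None of the 6 others matched by symbol showed the rise. The gene cela1.3 stood at 15.9, 11.9 and 8.72 CPM in ATG5 and at 3.44, 53.1 and 54.7 CPM in WT, and the second gene with the symbol CELA1, ENSDARG00000043175, stood at 5.21, 11.7 and 3.89 CPM in ATG5 and at 3.44, 12 and 29.3 CPM in WT. In both genes the ATG5 and WT values overlapped, as they did in cela1.2, cela1.4, cela1.5 and cela1.7, and none of the 6 was called, where 49.3% of all genes did not overlap and 30.6% were called. Without WT replicate 1, cela1.3 was called lower (log2 fold -2.15), as several of the other proteases were.

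The amylase gene amy2al1 did not follow the proteases. Its estimated counts were 11745, 11146 and 10458 in ATG5 and 13770, 13259 and 14275 in WT, so the highest of the 6 was 1.36 times the lowest, and WT replicate 1, with the fewest protease counts, was not low. As a share of all counts the groups overlapped, with ATG5 replicate 2 at 0.0331% and WT replicate 2 at 0.0302%. The TMM factors were 1.364, 1.47 and 1.333 in ATG5 and 0.684, 0.763 and 0.717 in WT. After TMM scaling amy2al1 stood at 219, 226 and 175 CPM in ATG5 and at 551, 397 and 566.5 CPM in WT, and the groups did not overlap. The group means were 207 ± 27.2 and 505 ± 93.9 CPM (SD, n = 3 each), a log2 fold of -1.29 ± 0.20 (SE). It was called lower with TMM factors, and the call was lost with library sizes only, where its log2 fold was -0.33 and the median of all genes was 0.95, with 2.84% of all genes called lower. Another amylase gene, amy2a, did follow the proteases, at 10.1, 234 and 445 CPM in WT replicates 1 to 3 and 54.4, 53.5 and 45.2 CPM in ATG5. Relative to prss1 counts, amy2a spanned 1.88 times over the 6 libraries and amy2al1 32.5 times. The low amylase gene amy2al2 spanned 12.4 times. It stood at 0.32, 1.23 and 4.96 CPM in WT replicates 1 to 3 and at 0.857, 1.7 and 3.74 CPM in ATG5.

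In all, 2 of the 9 genes were called, CELA1 as higher and amy2al1 as lower, against 30.6% of all tested genes called in either direction. The same 2 genes were those whose groups did not overlap in TMM-scaled CPM, amy2al1 only after that scaling. Of all tested genes, 49.3% had groups that did not overlap in TMM-scaled CPM, 27.1% with ATG5 above and 22.2% with ATG5 below. The median log2 fold of the 9 genes was -1.14, against 0.03 over all genes, and it was -1.64 without WT replicate 1 and -0.22 without WT replicate 3. Without WT replicate 1, 7 of the 9 were called, 1 higher and 6 lower, against 17.8% of all genes. All 9 passed the filter on low counts, and the lowest count of any of them was 133, for ela2 in WT replicate 1.

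Most other genes of the exocrine pancreas were likewise lowest in WT replicate 1 and highest in WT replicate 3, 13 and 14 of the 16 tested. A list of 28 names was written from general knowledge of acinar cells, with earlier results of these data known. It gave 18 genes, of which these 16 passed the filter. None was called with edgeR, against 30.6% of all genes. Before adjustment, 2 of the 16 (PLA2G1B and BHLHA15) had an edgeR p under 0.05. With DESeq2 3 were called, against 37.7% of all genes, and with limma-voom 1, against 28.7%. The median log2 fold was -1.18, and it was -1.73 without WT replicate 1 and -0.21 without WT replicate 3. The summed level of the list was 190.5, 1093 and 1862 CPM in WT replicates 1 to 3 and 469, 415.5 and 374 CPM in ATG5. In WT replicate 1 much of this sum came from PLA2G1B (62.8 CPM) and NR5A2 (70.8 CPM), which did not follow the proteases. In 10 of the 16 genes both WT replicates 2 and 3 exceeded WT replicate 1 by more than 5 times.

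Among the exopeptidases, which trim amino acids from the ends of peptides, the carboxypeptidase gene CPA1 (ENSDARG00000021339) stood at 9.45, 212 and 308.5 CPM in WT and 87.9, 52.1 and 39.9 CPM in ATG5. The carboxypeptidase gene CPB1 stood at 10.1, 138 and 239 CPM in WT. In ATG5 its levels were 44.9, 33.9 and 26.5 CPM, giving a log2 fold of -1.88 ± 1.42 (SE; edgeR adjusted p = 0.186). Without WT replicate 1, 8 of the 16 genes were called lower and none higher, among them amy2a (log2 fold -2.74), CPB1 (-2.43) and ctrl, a chymotrypsin-like protease gene (-1.71). In that comparison 7.39% of all genes were called lower. Without WT replicate 2 none of the 16 was called, where 22% of all genes were.

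**Figure D3:**
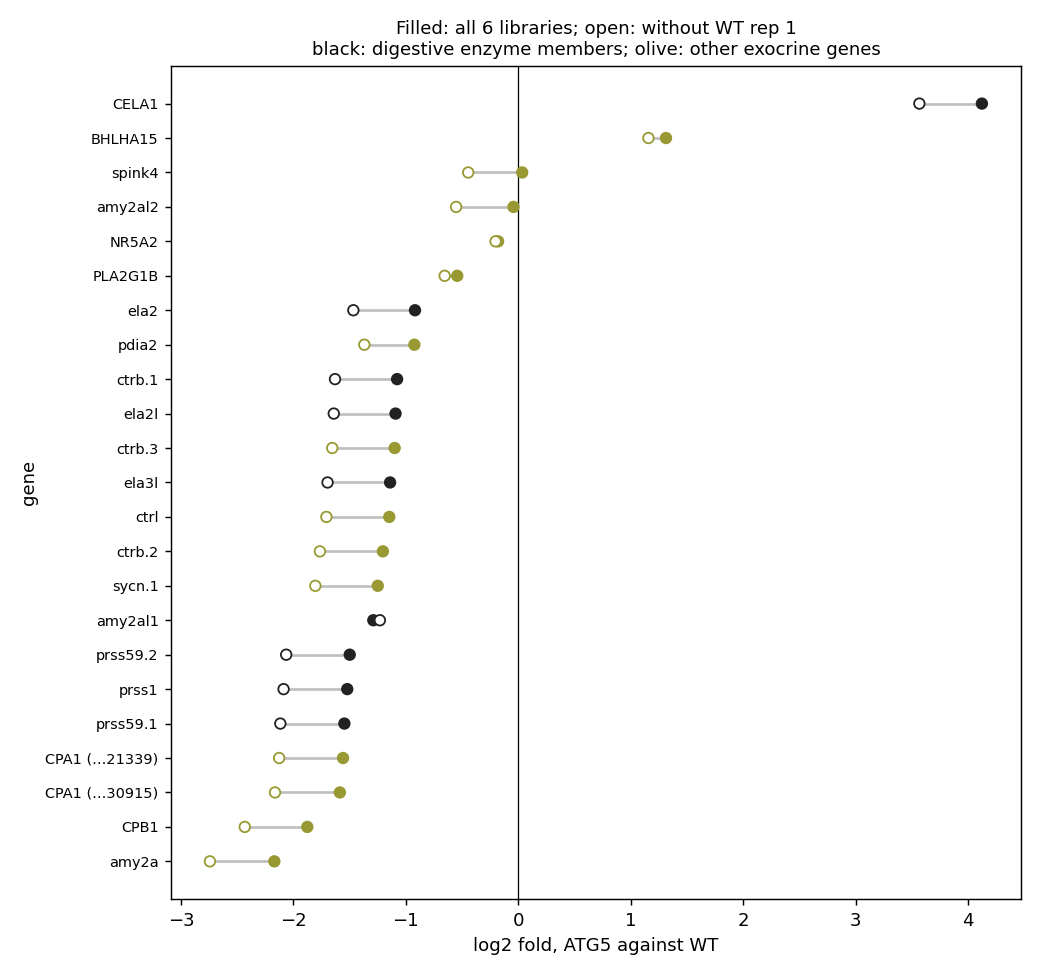
Fitted log2 folds of ATG5 against WT for the 9 matched genes (black) and other tested exocrine genes (olive), with all 6 libraries (filled) and without WT replicate 1 (open). CELA1 stands alone at 4.12 and 3.57; prss1 moves from -1.52 to -2.09, while amy2al1 and NR5A2 hardly move.

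A few genes of that list did not follow the proteases. PLA2G1B, a secreted phospholipase, stood at 62.8, 79.4 and 78.7 CPM in WT and 41.9, 51.8 and 58 CPM in ATG5, with a fitted log2 fold of -0.54 ± 0.18 (edgeR adjusted p = 0.0662, with 0.0238 to 0.166 over all alternatives), and DESeq2 called it lower. NR5A2, a nuclear receptor of acinar cells and hepatocytes, stood at 70.8, 65.8 and 79.7 CPM in WT and 53.1, 68.1 and 69.9 CPM in ATG5 (log2 fold -0.18 ± 0.15, edgeR adjusted p = 0.457). With library sizes only NR5A2 was called higher (adjusted p = 0.0114, with 0.0114 to 0.75 over all alternatives). BHLHA15, a transcription factor of secretory cells, stood at 1.17, 1.48 and 1.14 CPM in ATG5 and 0.36, 0.329 and 0.754 CPM in WT. Its log2 fold was 1.31 ± 0.36 (edgeR adjusted p = 0.0563), and it was called higher with DESeq2, limma-voom, library sizes only, a stricter filter and without WT replicate 3 (adjusted p from 0.00592 to 0.162 over all alternatives). The acinar transcription factor genes PTF1A and RBPJL were too low to be tested, with at most 0.101 and 0.317 CPM in any library.

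Markers of other cell types near the pancreas had different orders of libraries. Of the 12 endocrine pancreas genes 5 were tested. The insulin gene ins had 1746 counts in WT replicate 2, 4 in WT replicate 3, 1 in ATG5 replicate 1 and none in the other 3 libraries. The summed endocrine level was 125 CPM in WT replicate 2, 5.48 and 6.39 CPM in WT replicates 1 and 3, and 9.48 to 32.1 CPM in ATG5. WT replicate 3, with the most RNA of the 7 proteases other than CELA1, had little islet RNA. The glucagon gene gcga stood at 2.23, 9.74 and 24.6 CPM in ATG5 and at 0.16, 34 and 0.675 CPM in WT. The 1 call that edgeR made among these 5 genes, where 30.6% of all genes were called, was SCGN, a calcium-binding protein gene, at 5.38 ± 0.209 CPM in ATG5 and 3.28 ± 0.371 in WT (log2 fold 0.71 ± 0.10, edgeR adjusted p = 0.031). That call was lost without any one of the 6 libraries (edgeR adjusted p from 0.0673 to 0.0993). DESeq2 called 1 of these 5 genes higher and 1 lower, against 37.7% of all genes called. The lower gene was the ghrelin gene ghrl, at 0.186, 0.101 and 0.252 CPM in ATG5 and 0.4, 5.03 and 0.437 CPM in WT. Its level in WT replicate 2 was 12.6 times that in WT replicate 1.

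The intestine list was low throughout, at 18 to 43.6 CPM in ATG5 and 16.5 to 28.5 CPM in WT summed over 17 genes. Of its 9 tested genes 1 was called higher, against 17.3% of all genes. It was mep1a.1, with at most 0.546 CPM in any library, a call lost without any library other than WT replicate 2 (adjusted p from 0.0488 to 0.107). FABP6 had no count in any library. FABP2 stood at 4.4, 0.324 and 10.65 CPM in ATG5 and at 0.52, 1.44 and 0.556 CPM in WT. For apoa4a the levels were 1.45, 22.53 and 3.56 CPM in ATG5 and 1.04, 0 and 3.29 CPM in WT. Neither was called. Both had log2 folds above 0 (2.53 and 2.64), as 7 of the 9 tested genes did. The 2 below 0 were LCT (ENSDARG00000092404, -1.04) and cdx1b (-0.27). Protease inhibitors that the liver secretes into plasma were counted in 1 list with inhibitors on membranes. Of its 14 genes 9 were called lower in ATG5 and 2 higher, against 13.2% and 17.3% of all genes, with a median log2 fold of -1.31. With library sizes only 6 were lower and 3 higher, against 2.84% and 53.3% of all genes, where 56.1% were called in all. The list shares serpina1, serpina1l and ambp with the hepatocyte list. The serpin gene serpina1l stood at 2011, 1568 and 2097 CPM in ATG5 and 11700, 7796 and 10790 CPM in WT (log2 fold -2.42 ± 0.22, edgeR adjusted p = 0.00257). The membrane-bound inhibitor genes spint1a and spint2 were higher, with log2 folds of 1.80 ± 0.30 and 1.82 ± 0.33 (edgeR adjusted p = 0.00544 and 0.0063). The part of these lists in the levels of the digestive enzymes was not tested.

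**Figure D4:**
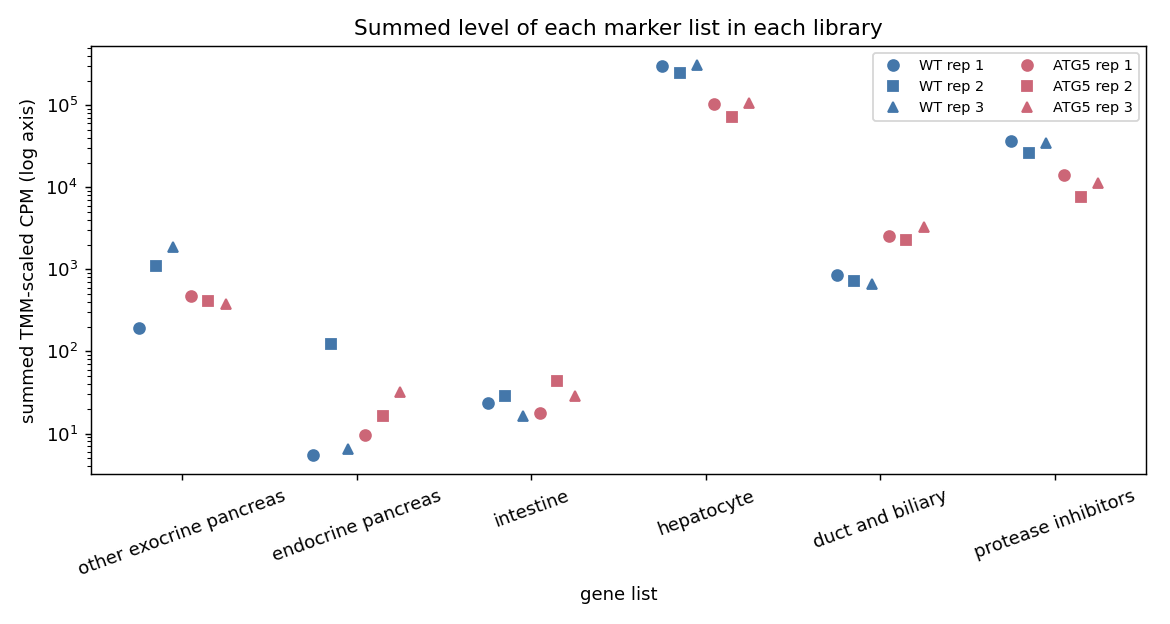
Summed TMM-scaled CPM (log axis) of 6 marker lists in each library, with 1 point per library, blue for WT and red for ATG5. Exocrine genes span 190.5 to 1862 CPM among the WT libraries, endocrine genes are high in WT replicate 2, and the hepatocyte sum is higher in every WT library than in any ATG5 library.

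Genes whose levels tracked the members other than CELA1 were sought by Pearson correlation of log2 CPM with the mean of the 8 members over the 6 libraries. Among 10160 genes that had a symbol, were not members and had a mean of at least 5 CPM, the closest was CEL, a bile salt-activated lipase gene (r = 0.9974), followed by si:ch211-240l19.6 (r = 0.994), whose role is not known here. The genes ctrb.3, amy2a, both CPA1 genes, CPB1 and ctrb.2, all on the exocrine list, were among the closest 10, as was si:ch211-240l19.8. CEL stood at 4.32, 81.7 and 190 CPM in WT and at 27.5, 28.5 and 23.5 CPM in ATG5. The genes closest to CELA1 were NEMP2, GNB4, DCTN5, CNOT10 and RNMT (r = 0.9956 to 0.9975), none of them called, with log2 folds of only 0.25 to 0.53 against 4.12 for CELA1. No gene among these 5 shared the size of its difference. These correlations describe 6 libraries in 2 groups that share their scaling.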

How the data were processed

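Per the labels' protocols, TRIzol was used to extract RNA from the 6 liver samples, and libraries were made with a stranded kit for total RNA. The authors deposited estimated counts per Ensembl gene, not scaled between libraries. The submitters' processing notes name the build GRCz11 and, in no stated order, sleuth 0.30.0, kallisto 0.45.0 and FastQC 0.11.5. Neither notes nor labels state the strand setting. Columns were matched by sample descriptions and groups came from titles. Estimated counts were rounded, filtered with filterByExpr (20366 genes kept), scaled with TMM and tested with the quasi-likelihood functions of edgeR 4.0.16 under R 4.3.3 (design of group alone), with Benjamini-Hochberg adjustment over all tested genes at 0.05. Log2 folds are fitted values. Each SE was computed from the within-group variance of log2 CPM with a prior count of 2, so it belongs to the difference of mean log2 CPM. The code was tested on simulated counts. Pairs of libraries compared by chi-square over genes all differed beyond sampling noise. Counting limits cover counting error only.

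Members and lists were chosen with earlier results of these data known. Symbols came from a gene name table, and older names and gene order from RefSeq (GRCz12tu), of another build, so no coordinates are given. Genes set to be named were all members, the most abundant and called genes of each list, and the genes closest in pattern. Only part of them appear in the text, since a few are left unreported. Some genes outside this rule are named too, among them PTF1A, RBPJL, FABP6 and the other cela1 family genes. Of the names in the lists, 9 of 28 exocrine, 5 of 17 endocrine, 2 of 17 intestine, 1 of 18 hepatocyte, 6 of 13 duct and biliary and 2 of 16 protease inhibitor names had no match. Alternatives were RLE factors, library sizes only, TMM without exocrine genes, no filter, a stricter filter (1 CPM in 3 libraries), DESeq2 1.42.0, limma-voom (limma 3.58.1), a replicate block, a prior count of 0.5, a threshold of 0.01 and leaving out each library. Figures were drawn with matplotlib 3.10.9.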

Additional observations from a re-analysis of the deposited data

How the results depend on the processing

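Of 135 values of single members under the alternatives, 121 kept their direction and their side of the threshold. This count says little about stability. Each of the 7 proteases was uncalled with all libraries, and counted as kept while its sign held and it stayed uncalled. The ctrb.1 log2 fold, for example, counted as kept at -0.05 without WT replicate 3, against -1.08 with all libraries. The prior count of 0.5 changed no member's adjusted p. The ela2 log2 fold turned to 0.016 with library sizes only, and ran from -1.47 to 0.12 with a library left out (0.12 without WT replicate 3). The median log2 fold of the members, -1.14, was -0.27 with limma-voom and -0.21 with library sizes only, and that of the other exocrine genes, -1.18, was -0.32 and -0.25. The number of members called, 2 with all libraries, was 1 with library sizes only (CELA1), 1 with a threshold of 0.01 (amy2al1) and 1 to 7 with a library left out. The other exocrine genes called, 0 of 16 by edgeR with TMM, numbered 2 with library sizes only, 1 with a stricter filter, 3 with DESeq2, 1 with limma-voom and 0 to 8 with a library left out. To set beside both counts, the share of all genes called was 30.6% by edgeR with TMM and 56.1% with library sizes only. It was 34.9% with the stricter filter, 37.7% with DESeq2, 28.7% with limma-voom and 17.8% to 23% with a library left out. Over all genes, the 6227 calls became 11431 with library sizes only, 2471 with a threshold of 0.01 and 3801 to 4840 with a library left out. With the replicate number as a block, 3889 genes (19.1%) and 1 member (amy2al1) were called, and the CELA1 fold of 4.84 was not. The members' median was then -0.49 and that of the other exocrine genes -0.55. The labels do not say that the numbers pair the samples, and same-numbered libraries did not deviate together (correlations of -0.04, -0.10 and 0.02). The causes of these changes were not tested. Where a library was left out, the effect of that library and that of having fewer libraries were not told apart. There were 3 libraries per group, and the WT group spanned more than 20 times in the 7 proteases. None of these 7 was called with all 6 libraries, where 30.6% of all genes were. What size of difference could be detected in these genes was not tested.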
